A study of Mus musculus with 6 samples.

Results

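Neurexins, neuroligins and Lrrtm proteins are adhesion proteins that bind each other across the synaptic cleft. The 9 genes described here are Nrxn2 and Nrxn3, which encode neurexins, Nlgn1, Nlgn2 and Nlgn3, which encode neuroligins, and Lrrtm1, Lrrtm2, Lrrtm3 and Lrrtm4, which encode leucine-rich repeat transmembrane proteins of neurons. They were taken by gene symbol from a table of 23361 genes, and all 9 were found and had a mean of at least 1 FPKM, the level above which 12533 genes were tested. FPKM counts fragments per kilobase of a transcript, normalised to what was mapped in a library. This puts genes of unlike length on 1 scale. It does not correct for base composition, with which the values shifted between libraries (below), so levels of different genes are compared with that limit. The table holds whole hippocampus of Tet1Δe4-/- mice, in which exon 4 of the DNA dioxygenase gene Tet1 is deleted on both alleles (called Tet1-deficient here), and of Tet1+/+ mice (wild-type), with 3 libraries of each genotype. Every mouse of both genotypes had received an electroconvulsive shock that evokes a seizure, and the tissue was taken 1.5 to 2 hours later. No unshocked group enters the comparison, so all levels below are levels after a seizure. The sources used here give neither age nor strain. Bulk RNA was measured, and a lower value cannot tell fewer cells of a type from less RNA per cell.

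Neurexins sit in the presynaptic membrane and carry long extracellular domains that are varied by alternative splicing. Neuroligins and Lrrtm proteins sit in the postsynaptic membrane, bind neurexins with their extracellular domains and hold scaffold proteins with their cytoplasmic tails. Nlgn1 acts at glutamatergic synapses, Nlgn2 at GABAergic synapses and Nlgn3 at both, while Lrrtm proteins act at glutamatergic synapses, where they stabilise AMPA receptors. Lrrtm4 also binds heparan sulfate proteoglycans such as glypicans, and in the hippocampus it is known from dentate granule cells.

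The base composition of these transcripts differs widely within each family, and the measured values follow it below, so coding sequences are shown first. Each line gives the last 60 coding bases of the longest annotated protein-coding transcript (GENCODE M21, GRCm38), stop codon included, with G and C in capitals. The end of the coding sequence is shown because it encodes the tail by which these proteins bind scaffold proteins inside the cell.
Nlgn1: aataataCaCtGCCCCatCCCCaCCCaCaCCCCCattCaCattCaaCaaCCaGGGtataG
Nlgn2: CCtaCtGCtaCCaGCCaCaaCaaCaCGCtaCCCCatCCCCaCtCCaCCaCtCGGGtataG
Nlgn3: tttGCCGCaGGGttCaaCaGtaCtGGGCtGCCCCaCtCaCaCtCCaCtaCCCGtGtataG
Lrrtm1: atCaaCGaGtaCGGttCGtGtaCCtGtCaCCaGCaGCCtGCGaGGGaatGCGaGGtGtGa
Lrrtm4: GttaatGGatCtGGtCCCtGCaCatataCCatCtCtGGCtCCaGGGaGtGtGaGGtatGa
Nrxn2: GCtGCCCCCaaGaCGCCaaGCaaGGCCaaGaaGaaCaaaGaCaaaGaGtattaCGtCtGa
Nrxn3: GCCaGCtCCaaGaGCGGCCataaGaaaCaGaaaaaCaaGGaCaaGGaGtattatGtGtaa
In these stretches the GC content was 50.0% for Nlgn1, 58.3% for Nlgn2 and 56.7% for Nlgn3. It was 56.7% for Lrrtm1 and 50.0% for Lrrtm4, and 50.0% for Nrxn2 and 43.3% for Nrxn3. The end of Lrrtm3, not printed here, had 55.0%. These short ends did not rank as the whole transcripts did, since Nrxn2 and Nlgn1 had the same value. The contrast was larger at the third codon position over the whole coding sequence, where many base changes leave the protein unchanged. There the GC content was 43.5% in Nlgn1, 73.7% in Nlgn2 and 63.1% in Nlgn3, and it was 77.8% in Lrrtm1, 49.8% in Lrrtm2, 63.6% in Lrrtm3 and 57.9% in Lrrtm4. The neurexin genes had 77.2% in Nrxn2 and 63.0% in Nrxn3. Over the longest transcript, untranslated parts included, it ran from 38.4% in Lrrtm4 and Lrrtm2 and 38.9% in Nlgn1 to 60.7% in Nlgn2 and 62.4% in Nrxn2, with Lrrtm3 at 44.5%, Nrxn3 at 47.5%, Nlgn3 at 49.3% and Lrrtm1 at 56.1%. The median of tested genes was 50.2%.

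Tet1 acts on methylated cytosine, which in mammals lies mostly in the dinucleotide CG. Promoters, taken as 300 bases around a RefSeq start site (GRCm38.p6), were at hand for 6 of the 9 genes: Nlgn1, Nlgn2, Nrxn3, Lrrtm1, Lrrtm3 and Lrrtm4. They are given for Nlgn2, the richest in CG among these 6, and for Lrrtm3, which lies near Tet1, with CG in capitals. The CG dinucleotide reads the same on both strands.
Nlgn2, chr11:69837735-69838034, minus strand: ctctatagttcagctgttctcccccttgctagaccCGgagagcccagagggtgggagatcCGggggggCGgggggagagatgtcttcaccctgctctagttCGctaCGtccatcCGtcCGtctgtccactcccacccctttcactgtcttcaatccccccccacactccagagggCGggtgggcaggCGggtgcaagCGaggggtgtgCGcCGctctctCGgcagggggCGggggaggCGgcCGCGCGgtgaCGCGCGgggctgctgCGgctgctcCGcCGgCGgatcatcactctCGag
Lrrtm3, chr10:64090206-64090505, minus strand: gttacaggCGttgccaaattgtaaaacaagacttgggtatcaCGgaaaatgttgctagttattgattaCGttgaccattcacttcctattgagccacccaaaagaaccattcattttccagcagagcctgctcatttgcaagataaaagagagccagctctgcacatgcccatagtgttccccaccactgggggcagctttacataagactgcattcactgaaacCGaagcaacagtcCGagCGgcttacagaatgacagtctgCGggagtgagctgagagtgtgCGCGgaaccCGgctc
The Nlgn2 promoter held 26 CG dinucleotides and that of Lrrtm3 held 10. Lrrtm1 had 7. Nlgn1 had 14 and 6 in its 2 promoters, Lrrtm4 had 4 and 9, and Nrxn3 had 2, 6 and 16 in its 3. The median of 32851 promoters of this length was 7, and 34.6% of them held 15 or more, as did those of Nlgn2 and 1 promoter of Nrxn3. DNA methylation was not measured.

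Before the genotypes are compared, a feature of the libraries has to be given. Wild-type replicate 1 and Tet1-deficient replicate 1 stood apart from the other 4 libraries on the first principal component of all tested genes, which carried 53.3% of the variance. Both were above the other 4 in 28.5% of tested genes and both below them in 35%. The same held for 7 of the 9 adhesion genes, 4 above and 3 below. The split crosses the genotypes, so it widens the spread within each. The labels name no batch. The title code of wild-type replicate 1 has an f where the other 5 have an m, which the labels do not explain. Read depth is unknown, since FPKM does not keep it, and each library summed to between 371014 and 390042 FPKM. Tet1 was low in both genotypes, from 0.718 to 0.977 FPKM in wild-type and from 0.638 to 0.740 FPKM in Tet1-deficient mice, and a gene-level value cannot check the loss of a single exon. Listed markers of neurons, astrocytes, oligodendrocytes and microglia were all above 0. Summed markers of excitatory neurons were 2706 to 2966 FPKM in wild-type and 2980 to 3086 FPKM in Tet1-deficient libraries, those of GABAergic interneurons 531 to 697 and 436 to 616 FPKM, those of vessel and meningeal cells 43.2 to 77.0 and 39.4 to 55.5 FPKM, and those of choroid plexus 62.0 to 381 and 62.2 to 306 FPKM. The sums for astrocytes were above those of the other 4 in both replicate 1 libraries, at 1349 and 1388 FPKM against 1169 to 1258 FPKM, and the sums for the oligodendrocyte lineage were below, at 3310 and 3035 FPKM against 3405 to 3960 FPKM. The excitatory sums were higher in Tet1-deficient libraries without overlap. Of the 12 tested vessel and meningeal markers all 12 were lower in Tet1-deficient libraries, beside 47.1% of all tested genes. Lower were also 8 of 10 interneuron, 4 of 10 excitatory, 4 of 10 astrocyte, 6 of 10 oligodendrocyte lineage, 5 of 10 microglia and 1 of 3 tested choroid plexus markers. The part of these cell types in the results was not tested.

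The 9 genes were expressed at very different levels. Averaged over the 6 libraries, Nlgn2 was highest at 70.4 FPKM, followed by Nrxn2 at 54.8, Lrrtm1 at 40.0, Nrxn3 at 35.7, Nlgn3 at 33.5, Nlgn1 at 18.9, Lrrtm4 at 14.98, Lrrtm2 at 13.5 and Lrrtm3 at 3.98 FPKM. Nlgn2, of GABAergic synapses, thus had the highest FPKM and ranked above 91.4% of tested genes, while Lrrtm3 ranked above 22.4%. These ranks are of FPKM not corrected for GC content, in which the 9 genes differ widely. Ranges of neighbours in this order overlapped over the 6 libraries, except that every Nlgn3 value was above every Nlgn1 value and every Lrrtm2 value above every Lrrtm3 value. Within single libraries, Nlgn2 exceeded Nrxn2 and Nrxn2 exceeded Lrrtm1 in 6 of 6. Lrrtm1 exceeded Nrxn3 and Nlgn1 exceeded Lrrtm4 in 5 of 6. Nrxn3 exceeded Nlgn3 in 3 of 6 libraries and Lrrtm4 exceeded Lrrtm2 in 4 of 6, so neither order is fixed by these data.

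**Figure D1:**
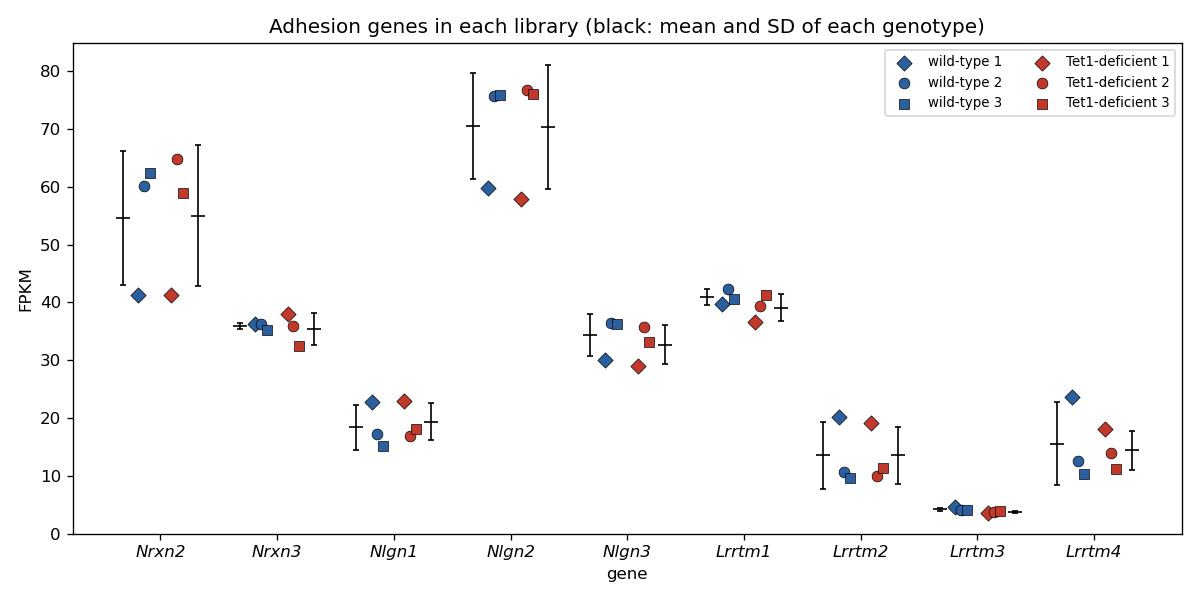
FPKM of the 9 adhesion genes in each library, with 1 point per library (blue, wild-type; red, Tet1-deficient; the diamond marks replicate 1) and the mean and SD of each genotype in black. Replicate 1 of both genotypes lies below the others for Nrxn2, Nlgn2 and Nlgn3 and above them for Nlgn1, Lrrtm2 and Lrrtm4, while the genotype means are close.

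None of the 9 genes passed the test between genotypes. The test was limma's moderated test on log2(FPKM + 1), with an intensity trend and Benjamini-Hochberg adjustment over the 12533 tested genes at a threshold of 0.05. It called 0.0319% of tested genes, which is 4 genes (0.0239% higher and 0.00798% lower), and called 0 of the 9 members. Each member had an adjusted p of 1.00. At an unadjusted p under 0.05 there were 0 members, against 1.36% of tested genes. A log2 difference is always that of Tet1-deficient from wild-type mice, positive where Tet1-deficient is higher. It was above 0 for 3 members and below 0 for 6, against 52.9% and 47.1% of tested genes, with a median of −0.021 against 0.0055 over all tested genes. A missed threshold does not show that levels were equal, and the 95% confidence intervals below give the differences that remain possible. Exact two-sided permutation tests on single genes are given beside them, and with 3 libraries against 3 they cannot go below p = 0.1.

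Among the presynaptic genes, Nrxn2 measured 41.3, 60.2 and 62.3 FPKM in wild-type mice, against 41.3, 64.8 and 58.9 FPKM in the Tet1-deficient mice. In each genotype the first library was low and the other 2 lay close together, and the genotypes overlapped. The means were 54.6 ± 11.5 and 55.0 ± 12.2 FPKM (SD, n = 3), a log2 difference of 0.0078 (SE 0.218, 95% confidence interval −0.51 to 0.53, exact permutation p = 1). In the 4 libraries that lie together the log2 difference was 0.012 (SE 0.0633). Nrxn3, the other neurexin gene, was even across the libraries. It had 36.3, 36.2 and 35.2 FPKM in wild-type mice, against 38.0, 35.9 and 32.5 FPKM in the Tet1-deficient mice, whose range enclosed that of wild-type. Its log2 difference was −0.021 (SE 0.0915, 95% confidence interval −0.24 to 0.20, exact permutation p = 0.8), and −0.063 in the 4 libraries (SE 0.0643).

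The neuroligin genes overlapped between genotypes and differed among libraries. Nlgn1 measured 22.8, 17.3 and 15.2 FPKM in wild-type mice, against 23.0, 16.9 and 18.2 FPKM in the Tet1-deficient mice, high in the first library of each. Its log2 difference was 0.075 (SE 0.176, 95% confidence interval −0.34 to 0.49, exact permutation p = 0.7). Nlgn2 showed the opposite order of libraries, with 59.8, 75.7 and 75.9 FPKM in wild-type mice, against 57.9, 76.8 and 76.1 FPKM in the Tet1-deficient mice. Leaving aside the first library of each genotype, the 4 values of Nlgn2 lay between 75.7 and 76.8 FPKM, a coefficient of variation of 0.639%. Its log2 difference was −0.0073 over all libraries (SE 0.152, 95% confidence interval −0.37 to 0.35, exact permutation p = 1) and 0.012 in the 4 libraries (SE 0.0447). Nlgn3 lies on the X chromosome and had 30.1, 36.5 and 36.3 FPKM in wild-type mice, against 29.03, 35.7 and 33.2 FPKM in the Tet1-deficient mice. The genotypes overlapped for it too, with a log2 difference of −0.069 (SE 0.121, 95% confidence interval −0.36 to 0.22, exact permutation p = 0.5). In the 4 libraries the log2 differences were 0.11 for Nlgn1 (SE 0.0807) and −0.078 for Nlgn3 (SE 0.0557).

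Among the Lrrtm genes, Lrrtm1 was the most even. It measured 39.8, 42.4 and 40.6 FPKM in wild-type mice, against 36.6, 39.4 and 41.2 FPKM in the Tet1-deficient mice, overlapping, with a log2 difference of −0.066 (SE 0.0871, 95% confidence interval −0.27 to 0.14, exact permutation p = 0.4). Lrrtm2 and Lrrtm4 varied most of the 9 genes. Lrrtm2 had 20.2, 10.7 and 9.68 FPKM in wild-type mice, against 19.2, 10.01 and 11.4 FPKM in the Tet1-deficient mice, and its highest value was 2.08 times its lowest. Lrrtm4 had 23.7, 12.6 and 10.3 FPKM in wild-type mice, against 18.0, 13.97 and 11.2 FPKM in the Tet1-deficient mice, a ratio of 2.30 between extremes. For both genes the first library of each genotype was the highest of its genotype, so the spread within genotypes far exceeded the difference between them. The log2 differences were 0.018 for Lrrtm2 (SE 0.321, 95% confidence interval −0.74 to 0.78, exact permutation p = 0.9) and −0.044 for Lrrtm4 (SE 0.305, 95% confidence interval −0.77 to 0.68, exact permutation p = 1). In the 4 libraries they were 0.061 for Lrrtm2 (SE 0.0880), 0.12 for Lrrtm4 (SE 0.135) and −0.042 for Lrrtm1 (SE 0.0528), so the sign for Lrrtm4 turned.

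Lrrtm3 was the 1 member whose genotypes did not overlap. It measured 4.55, 4.07 and 4.06 FPKM in wild-type mice, against 3.64, 3.67 and 3.89 FPKM in the Tet1-deficient mice, so all 3 Tet1-deficient libraries were below all 3 wild-type libraries. The means were 4.23 ± 0.278 and 3.73 ± 0.140 FPKM (SD, n = 3), or 88.4% of wild-type. The log2 difference was −0.14 (SE 0.0868, 95% confidence interval −0.35 to 0.065), with an exact permutation p of 0.1, the smallest possible. Groups that do not overlap with Tet1-deficient lower were found for 2.21% of tested genes, with Tet1-deficient higher for 1.91%, and in either direction for 4.13%. In the 4 libraries the log2 difference was −0.084 (SE 0.0735). A term for the split cannot change the difference over all libraries, −0.14, as each genotype has 1 library set apart. The SE with this term was 0.0658. The difference therefore did not pass the threshold in any of these fits.

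**Figure D2:**
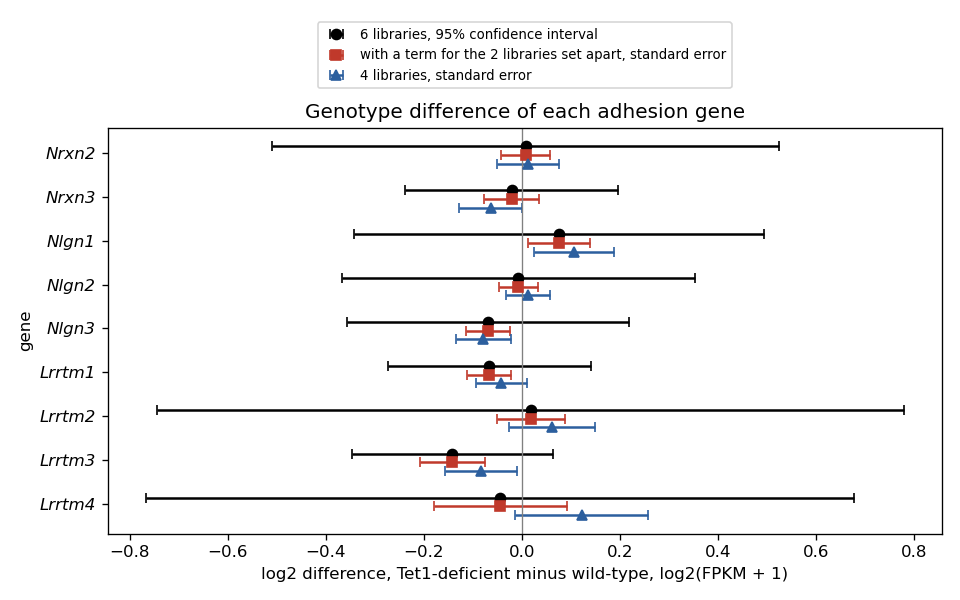
Log2 difference between Tet1-deficient and wild-type libraries on the log2(FPKM + 1) scale for each adhesion gene. Black points are the fit to 6 libraries with 95% confidence intervals. Red points are the fit with a term for the 2 libraries set apart, and blue points the fit to the other 4 libraries, both with standard errors. The term leaves the difference unchanged and alters only its standard error. Every interval of the 6-library fit includes 0, and that of Lrrtm2 is the widest at −0.74 to 0.78.

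For most of these genes the larger difference lay between libraries of 1 genotype. This was not so for Lrrtm3, whose genotype difference of −0.14 was further from 0 than both of its values below. That of Lrrtm1, −0.066, was further from 0 than its wild-type value only. In wild-type, replicate 1 minus the mean of replicates 2 and 3 was 0.99 for Lrrtm4, 0.92 for Lrrtm2 and 0.47 for Nlgn1 on the log2 scale, and −0.27 for Nlgn3, −0.34 for Nlgn2 and −0.56 for Nrxn2. In Tet1-deficient hippocampus, measured in other mice, the same difference was 0.49 for Lrrtm4, 0.79 for Lrrtm2, 0.37 for Nlgn1, −0.24 for Nlgn3, −0.40 for Nlgn2 and −0.57 for Nrxn2. The sign of these 6 genes was the same in both genotypes. Both libraries were set apart for lying together over all tested genes, so a shared sign is no separate support. Over all tested genes the Spearman rho between the deviations of the 2 libraries was 0.82. Lrrtm1 had −0.059 and −0.13 and Nrxn3 had 0.023 and 0.15, each also of the same sign, while Lrrtm3 had 0.13 and −0.042. Over all 6 libraries the replicate 1 values of Nrxn2, Nlgn2 and Nlgn3 were both below the other 4, and those of Nrxn3, Nlgn1, Lrrtm2 and Lrrtm4 both above. That is 7 of 9 members, beside 63.5% of tested genes, a share near the background. Nrxn3 was counted by a narrow margin, at 36.30 FPKM in wild-type replicate 1 against 36.20 FPKM in wild-type replicate 2.

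These deviations ranked with the base composition of the transcripts, with departures by some members. The members poorest in G and C, Lrrtm4, Lrrtm2 and Nlgn1, were the ones raised most in replicate 1, and the richest, Nrxn2 and Nlgn2, were the ones lowered most. Across the 9 members the Spearman rho between transcript GC content and the deviation was −0.98 in wild-type and −0.95 in Tet1-deficient libraries. Across 12460 tested genes with a known transcript it was −0.71 and −0.73. These are descriptions across genes, which share the libraries and are not replicates. The 1246 genes with the lowest GC content, 31.0% to 41.9%, had a median deviation of 0.40 in wild-type and 0.48 in Tet1-deficient libraries, and the 1246 with the highest, 58.4% to 71.3%, had −0.37 and −0.35. Lrrtm2, Lrrtm4 and Nrxn2 were further from 0 than the medians of their groups of like GC content in both genotypes. Nlgn3 departed from the trend, at −0.27 and −0.24 where the 1246 genes of like GC content had medians of 0.0012 and −0.027. Lrrtm1 departed the other way, at −0.059 and −0.13 where genes of like GC content had −0.29 and −0.28. Transcript length showed no such relation among the members, with a rho of −0.10 and 0.017. When each library's trend on GC content and length was removed, an alternative chosen after the data were seen, the SE of the genotype difference fell from 0.218 to 0.0658 for Nrxn2, from 0.152 to 0.0589 for Nlgn2 and from 0.321 to 0.156 for Lrrtm2. For Lrrtm3 and Lrrtm1, which vary little between the sets of libraries, it changed from 0.0868 to 0.0892 and from 0.0871 to 0.0749. The cause of the split was not tested.

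**Figure D3:**
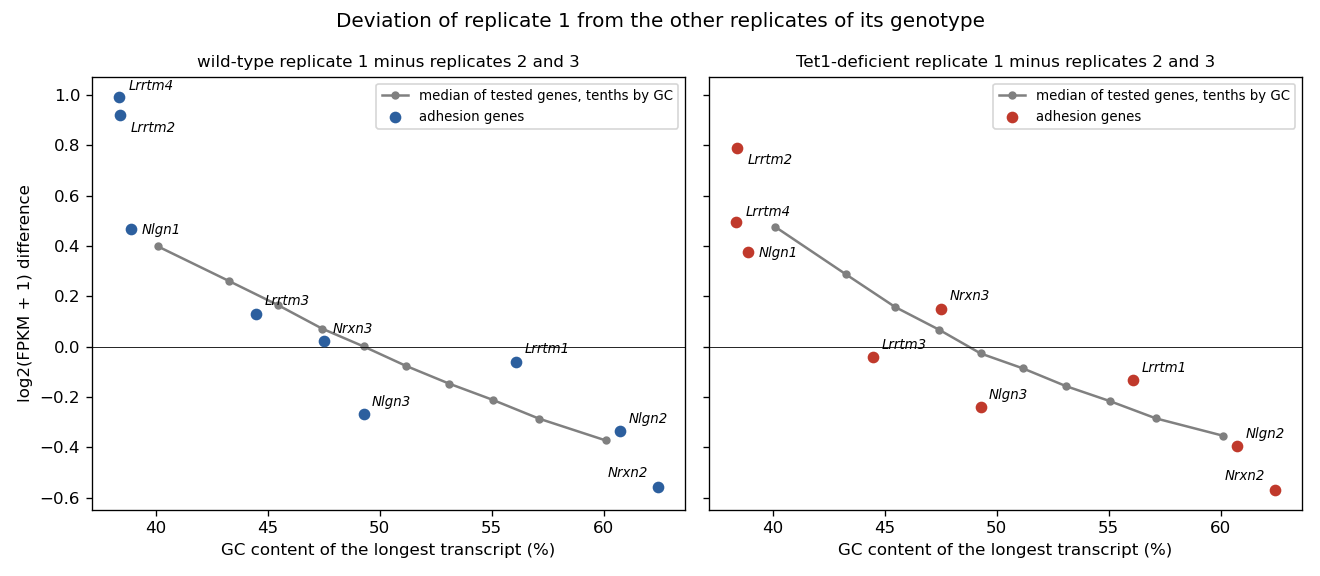
Deviation of replicate 1 from the mean of replicates 2 and 3 of its genotype, as a log2(FPKM + 1) difference, against the GC content of the longest transcript, in wild-type (left) and Tet1-deficient (right) libraries. Grey points are medians of tested genes in groups of 1246 by GC content, falling from 0.40 and 0.48 to −0.37 and −0.35, and the adhesion genes run in the same direction from Lrrtm2 and Lrrtm4 to Nrxn2.

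The makeup of each family differed between the sets of libraries, and the genotypes overlapped in every share. The shares and ratios were taken from FPKM not corrected for GC content. Shares of a family add to a fixed total, so a change in 1 gene shifts the shares of the others. Nlgn2 made up 53.1%, 58.5% and 59.6% of the summed neuroligin FPKM in wild-type mice, against 52.7%, 59.4% and 59.7% in the Tet1-deficient mice. Nlgn1, its counterpart at glutamatergic synapses, made up 20.2%, 13.3% and 11.9% of the sum in wild-type mice, against 20.9%, 13.0% and 14.3% in the Tet1-deficient mice. The ratio of Nlgn2 to Nlgn1 was accordingly 2.63 and 2.52 in the libraries set apart and 4.19 to 4.99 in the other 4. Nlgn3 kept a share of 26.1% to 28.5% in all 6. Among the Lrrtm genes, Lrrtm1 held 45.1% and 47.3% of the sum in the libraries set apart and 58.8% to 62.8% in the other 4. Lrrtm3 held 5.15% and 4.70% in the libraries set apart and 5.47% to 6.27% in the other 4. In FPKM itself, neither Lrrtm1 nor Lrrtm3 had both libraries set apart above or both below the other 4. The ratio of Nrxn2 to Nrxn3 was 1.14 and 1.09 in the 2 libraries and 1.66 to 1.81 in the other 4.

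**Figure D4:**
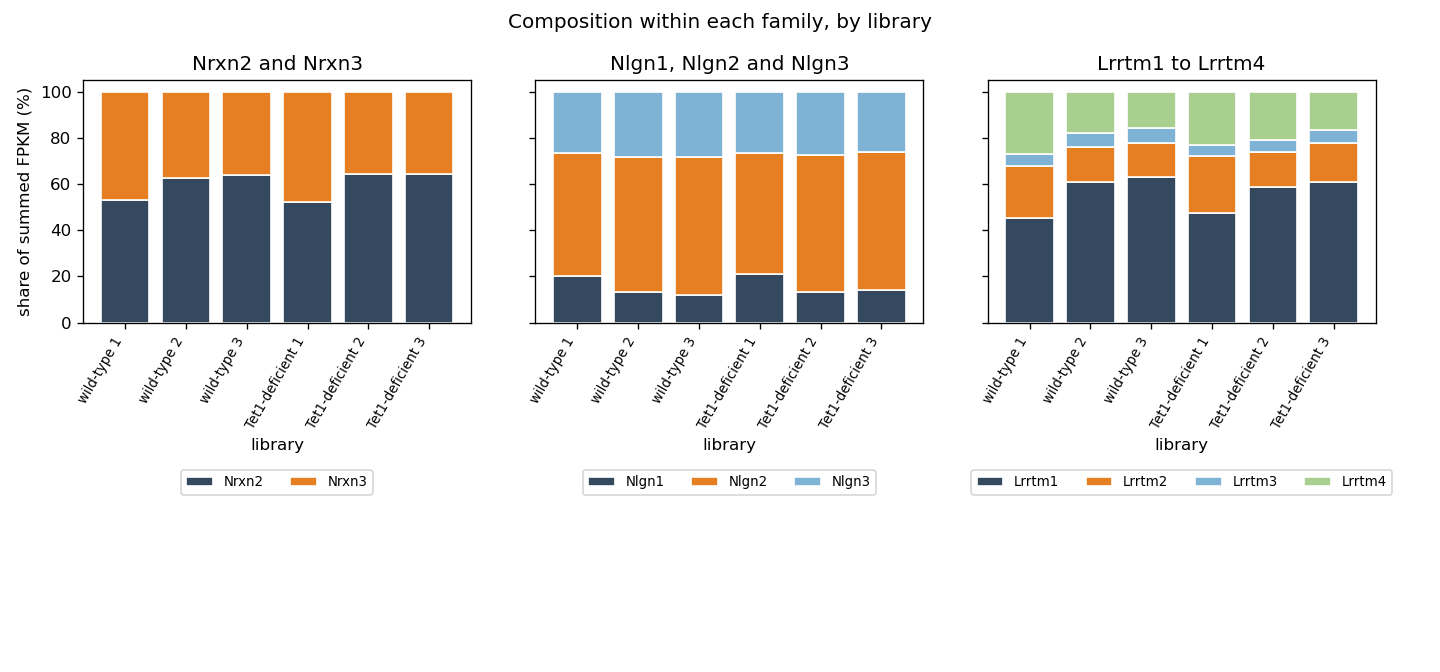
Share of each gene in the summed FPKM of its family, in percent, with 1 stacked bar per library. Shares of a family add to a fixed total, so they do not shift independently. Replicate 1 of both genotypes has smaller shares of Nrxn2, Nlgn2, Lrrtm1 and Lrrtm3 and larger shares of Nrxn3, Nlgn1, Lrrtm2 and Lrrtm4 than the other 4 libraries, while the genotypes overlap in every share.

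Partners of these proteins showed 0 genes past the threshold in limma. Their counts stand beside 1.36% of tested genes at an unadjusted p under 0.05, 2.21% with groups that did not overlap and Tet1-deficient lower, 1.91% without overlap and higher, and 47.1% with a log2 difference below 0. Of 26 listed ligands and receptors in the cleft 24 were tested. Of these, among them cerebellins, calsyntenins, latrophilins and glypicans, 8 lay above 0 and 16 below 0, with a median log2 difference of −0.041 against 0.0055 over all tested genes. In 2 genes the groups did not overlap, both lower, and 1 of them had an unadjusted p under 0.05. That gene was Gpc4, a glypican that binds Lrrtm4. It measured 17.3, 14.95 and 14.5 FPKM in wild-type mice, against 12.3, 13.2 and 11.7 FPKM in the Tet1-deficient mice, so the groups did not overlap. Its log2 difference was −0.30 (SE 0.101, limma adjusted p = 1.00). Cbln4, a secreted cerebellin that binds neurexins, had 4.396, 4.62 and 4.21 FPKM in wild-type mice, against 3.23, 3.77 and 4.17 FPKM in the Tet1-deficient mice, again without overlap (log2 difference −0.20, SE 0.104). Lrrtm4 itself overlapped between genotypes.

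Of 39 listed genes of other adhesion systems across the cleft 38 were tested, of which 14 were higher and 24 lower, with a median log2 difference of −0.022 and 1 gene at an unadjusted p under 0.05. It was Efnb2, which encodes an ephrin, at 10.2, 9.06 and 9.71 FPKM in wild-type mice, against 6.07, 7.84 and 8.14 FPKM in the Tet1-deficient mice. The groups did not overlap, and the log2 difference was −0.36 (SE 0.123, limma adjusted p = 1.00). Efnb2 is also known from arterial endothelium, and the 12 vessel and meningeal markers counted above were all lower in the same libraries. The part of vessel cells in this value was not tested. Slitrk3, a postsynaptic partner of GABAergic synapses, was higher without overlap, at 37.0, 38.9 and 35.5 FPKM in wild-type mice, against 40.3, 39.8 and 40.9 FPKM in the Tet1-deficient mice (log2 difference 0.12, SE 0.0821). Of 22 cytoplasmic partners 16 were higher and 6 lower (median log2 difference 0.024), where Magi1, a scaffold gene, had a log2 difference of −0.30 (SE 0.161) and Sntb2, a syntrophin gene, 0.12 (SE 0.0941). Among 13 genes that act with Nlgn2 at inhibitory synapses 10 were higher and 3 lower (median 0.034), and Gphn, which encodes the scaffold gephyrin, measured 41.8, 37.3 and 33.3 FPKM in wild-type mice, against 44.8, 37.0 and 38.4 FPKM in the Tet1-deficient mice. Both replicate 1 libraries were above or both below the other 4 for all 13 genes of this list, beside 63.5% of tested genes. The same held for 18 of 24 ligands and receptors in the cleft, 28 of 38 other adhesion genes, 18 of 22 cytoplasmic partners, 10 of 15 splicing factors and proteases and 0 of 2 alpha-catenin genes. Of 15 splicing factors and proteases that act on neurexins and their partners 5 were higher and 10 lower (median −0.0079), with Psen2, a gamma-secretase gene, at −0.11 (SE 0.108) and the splicing factor gene Nova2 at −0.067 (SE 0.0802), whose groups did not overlap. In the last 3 lists limma gave 0 genes at an unadjusted p under 0.05.

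The 9 genes are spread over the genome. In mm10 Nrxn2 lies at chr19:6418731-6544169, Nrxn3 at chr12:88722876-90334935, Nlgn1 at chr3:25426215-26332460, Nlgn2 at chr11:69823122-69837784 and Nlgn3 at chrX:101299168-101325963. Lrrtm1 lies at chr6:77242689-77257791, Lrrtm2 at chr18:35209003-35215024 and Lrrtm4 at chr6:80018877-80810143. The longest transcripts of the neurexin genes have 23 and 20 exons, those of the neuroligin genes 8 each, and those of the Lrrtm genes 2, or 3 for Lrrtm3. Lrrtm1, Lrrtm2 and Lrrtm3 each lie on the opposite strand within an intron of an alpha-catenin gene, a linker of cadherins to actin: Lrrtm1 in Ctnna2, Lrrtm2 in Ctnna1 and Lrrtm3 in Ctnna3. The sources used here do not give whether strand was used in counting, so reads from the host's intron and reads of the nested gene cannot be told apart, while the exons of the longest host transcript do not overlap the nested gene. Ctnna2 measured 37.5, 38.7 and 36.5 FPKM in wild-type mice, against 36.3, 38.7 and 38.2 FPKM in the Tet1-deficient mice, about the level of Lrrtm1. Ctnna1 measured 19.2, 19.0 and 20.0 FPKM and 16.2, 21.5 and 18.6 FPKM, without the high replicate 1 values of Lrrtm2. Ctnna3 was under the 1 FPKM filter, at 0.424, 0.348 and 0.617 FPKM in wild-type mice, against 0.249, 0.442 and 0.392 FPKM in the Tet1-deficient mice, and its groups overlapped where those of Lrrtm3 did not.

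Lrrtm3 occupies chr10:63928472-64090277 on the minus strand (mm10), 1019 kb from Tet1, which lies at chr10:62804570-62908996. Of the 28 other tested genes within 2 Mb of Tet1, 19 lay above 0 and 9 below 0, with a median log2 difference of 0.012 and 0 at an unadjusted p under 0.05. The groups did not overlap for 1 of the 28, Tbata, which was lower (log2 difference −0.18), beside 4.13% of tested genes without overlap in either direction and 2.21% lower. It lies on the far side of Tet1 and was chosen for mention after its value was seen. The 2 tested genes nearest to Lrrtm3 were Dnajc12, a cochaperone gene with a log2 difference of 0.14, and the deacetylase gene Sirt1, with −0.087. Both overlapped between genotypes and they lay on opposite sides of 0.

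**Figure D5:**
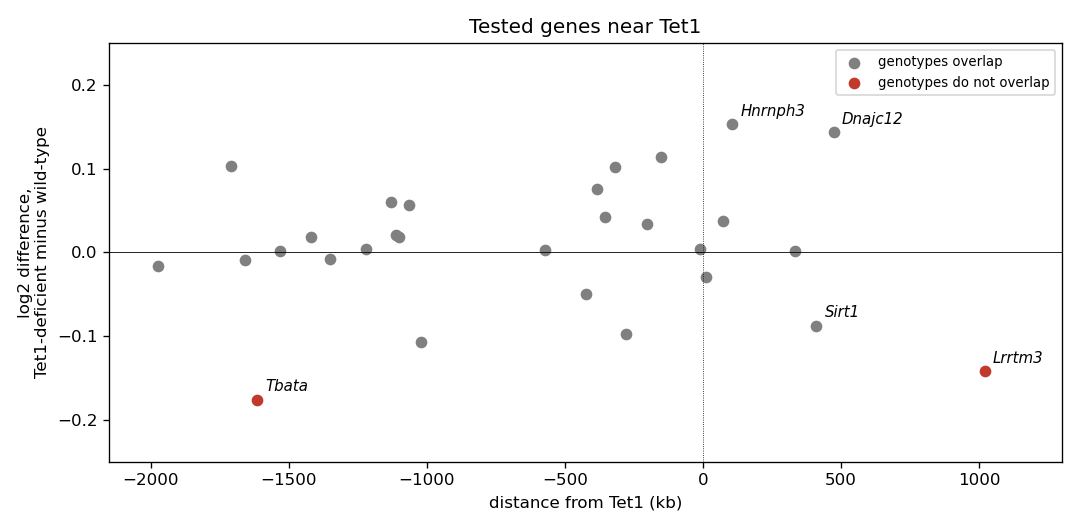
Log2 difference between Tet1-deficient and wild-type libraries for tested genes within 2 Mb of Tet1, against their distance from Tet1 in kb (negative toward lower coordinates). Red points, Lrrtm3 at −0.14 and Tbata at −0.18, are the genes whose genotypes do not overlap.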

How the data were processed

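RNA of whole hippocampus was sequenced in 3 Tet1-deficient and 3 wild-type libraries, grouped by the genotype label. Replicates are separate mice per the design text, and their numbers, given by accession order, pair none of them. The authors deposited gene-level FPKM values, made with TopHat2 2.0.9 and Cufflinks 2.1.1 on mm10, per the submitters' processing notes. The annotation, strand setting and handling of multiply mapped reads were not given in the sources used here. Read steps were sought: among 362 genes under 0.03 FPKM in both replicate 1 libraries, at most 5 shared a ratio to 3 decimals, so depth is unknown and no count test was run. Any 2 libraries shared at most 1 nonzero value.

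Genes averaging 1 FPKM or more were tested with limma 3.58.1 in R 4.3.3 on log2(FPKM + 1), two-sided, with an intensity trend, no covariate and a threshold of 0.05, after a check on simulated data. The simulated noise was independent between libraries and the planted changes were larger than any member difference. The check therefore says nothing on the split or on differences as small as those of the members. A fold change on this scale understates that of low genes. Tet1 and Ctnna3, under the filter, were fitted among all genes above 0. GC content, length and positions came from GENCODE M21 on GRCm38 and matched 99.4% of tested genes. Named genes are the members, the 2 of each partner list with the smallest p, the alpha-catenin genes and the neighbours of Lrrtm3, of which 1 partner gene is not reported here. Alternatives were a pseudocount of 0.1 FPKM, no level filter, other scalings, no trend, library weights, a term for the split, the 4 libraries alone, each library left out, a threshold of 0.1 and, added later, removal of GC and length trends. The members, lists and tests were chosen with earlier results of these data known.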

Additional observations from a re-analysis of the deposited data

How the results depend on the processing

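No paired analysis was possible because the labels give the genotypes no common replicate numbers that pair mice. None of the 9 genes passed the threshold in any of 15 alternatives, where the lowest adjusted p was 0.522, and 112 of 135 values kept their sign. Having no level filter, no intensity trend or a term for the split leaves each log2 difference as it was. In these the sign could not turn, so they add no support to that count. Signs turned for small differences. Nlgn2 had 0.013 with median-of-ratios scaling, which moved the median of all genes from 0.0055 to 0.0235, about the shift of Nlgn2 itself. It had 0.012 with library weights, 0.012 in the 4 libraries and 0.025 with GC content and length removed. Nrxn2 had −0.023 with quantile normalization and −0.022 with library weights, Lrrtm4 had 0.12 in the 4 libraries, and Lrrtm2 had −0.063 with GC content and length removed. With 1 library left out, the log2 difference ran from −0.18 to 0.20 for Nrxn2, −0.071 to 0.039 for Nrxn3, −0.049 to 0.23 for Nlgn1, −0.12 to 0.12 for Nlgn2, −0.16 to 0.011 for Nlgn3, −0.10 to −0.022 for Lrrtm1, −0.25 to 0.32 for Lrrtm2, −0.17 to −0.098 for Lrrtm3 and −0.28 to 0.29 for Lrrtm4. The sign turned without wild-type replicate 1 for Nrxn2 and Lrrtm4, without wild-type replicate 2 for Nlgn2 and Lrrtm2, without wild-type replicate 3 for Nlgn1, Nlgn2 and Lrrtm2, without Tet1-deficient replicate 1 for Nlgn1, Nlgn2, Nlgn3 and Lrrtm2, without Tet1-deficient replicate 2 for Nrxn2, and without Tet1-deficient replicate 3 for Nrxn2, Nrxn3 and Lrrtm4. Lrrtm1 and Lrrtm3 stayed below 0 in all 15 alternatives, among them those that leave the value as it was. Over all genes the test called 4 (3 higher and 1 lower), with library weights 59 (16 higher and 43 lower), with a term for the split 8 (5 higher and 3 lower), in the 4 libraries 12 (6 higher and 6 lower), and with 1 library left out 0 to 6 (0 without wild-type replicate 3 and also without Tet1-deficient replicate 2, and 1 without wild-type replicate 2 and also without Tet1-deficient replicate 3). The cause was not tested. Of 54 list medians under alternatives 53 moved by less than 1 SD between replicates, and that of splicing factors and proteases was 0.039 without wild-type replicate 1. Depth is unknown, so its limit on Lrrtm3 and other low genes cannot be given.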
